A study of Drosophila melanogaster with 3 samples.

Results

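Autophagy delivers cytoplasm and organelles to the lysosome inside a double membrane, the autophagosome. A kinase complex around Atg1 starts the process, a lipid kinase complex with Atg6 marks the membrane, Atg2 and Atg18 serve its growth, and an enzyme cascade with Atg7 and Atg5 couples the small protein Atg8 to a membrane lipid. In Drosophila larvae autophagy is induced in the fat body by starvation, and at the end of larval life by the moulting hormone ecdysone in fat body, salivary gland and midgut.

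Described here are 8 autophagy genes, Atg1, Atg2, Atg5, Atg6, Atg7, Atg8a, Atg8b and Atg18, which were chosen by name among 14161 genes. All of them were found in the deposited tables. The RNA was that of larvae in the third instar (Drosophila melanogaster), from stocks kept at 20 degrees, in 3 groups: females, males, and metafemales, which carry an additional X chromosome beside diploid autosomes. The labels give 3 biological repeats per group and name no tissue, strain, age in hours or allele, and the study's title sets metafemales against normal females. Each group was deposited as 1 column, so no difference below has a replicate check, no test between groups could be made, and no p-value is given.

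Values are counts per 1000000 transcript counts (CPM), that is, the deposited fraction times 1000000. Every column sums to 1 over its transcripts before this step. The steps between low values give inferred library totals of 65.6 to 89.2 M counts in females, 31.6 to 92.4 M in males and 69.0 to 112 M in metafemales. Intervals are at 95%, exact binomial for ratios and a normal approximation for differences of log2 fold changes. They cover counting error only and say nothing of the spread between larvae. Log2 fold changes are on value + 1 CPM, which understates changes of low genes, and a gene is called higher or lower when it is past 2-fold on that scale. Among 10942 genes whose mean reached 1 CPM, the median in metafemales against females was -0.22 (log2). Median-of-ratios scaling adds 0.41 to that comparison and scaling on autosomal genes adds 0.46 (log2, before 1 CPM is added), so the sign of a small change in metafemales depends on the scaling. In males against females the same scalings add -0.04 and 0.01. The male dosage compensation RNA roX1 was at 20.7 CPM in females, 388 in males and 17.7 in metafemales. It sets males apart from the other groups and cannot check which of those is the metafemale group.

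In metafemales 1 of the 8 genes was called lower than in females, Atg7, and 0 were called higher. The other 7 had log2 fold changes from -0.64 (Atg8a) to -0.16 (Atg8b), and in males 1 of the 8 was called higher, Atg8b. With either other scaling 6 of the 8 stayed below 0 in metafemales. Across all genes, 10.9% were called lower and 4.81% higher in metafemales against females, and 15.3% higher and 1.96% lower in males against females. A share of 12.5% of the members called lower in metafemales is near that background, as is 12.5% called higher in males.

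**Figure D1:**
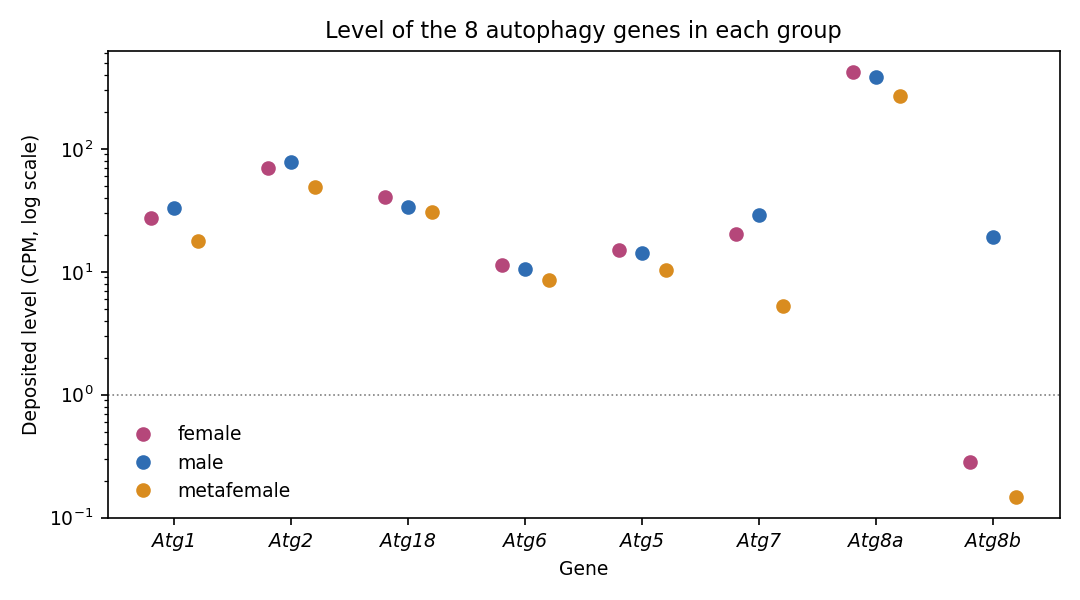
Level of each autophagy gene in CPM (log axis) in female, male and metafemale larvae, 1 deposited value per group with no error bar because repeats are not given separately. Atg8a lies above all others in each group, Atg7 is at 5.30 CPM in metafemales, and Atg8b is below 1 CPM (dotted line) in both groups other than males.

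Atg1, on chromosome arm 3L, encodes the protein kinase that starts autophagosome formation. Its level was 27.4 CPM in females, 32.7 in males and 17.8 in metafemales. Metafemales were thus lowest and males highest, with a metafemale to female ratio of 0.649 (0.625 to 0.674) and a male to female ratio of 1.197 (1.154 to 1.241). Both annotated Atg1 transcripts in the tables gave nearly the same metafemale to female ratio, 0.649 and 0.658. Reads appear to be counted for every transcript they overlap, so these are not independent measurements.

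Atg2 and Atg18 serve the expansion of the membrane. Atg2, a lipid transfer protein gene on 3L, had 69.6 CPM in females, 77.5 in males and 48.6 in metafemales. Atg18, now named Atg18a and also on 3L, encodes a protein that binds phosphatidylinositol 3-phosphate. It had 40.3 CPM in females, 33.5 in males and 30.5 in metafemales. Ratios of metafemales to females were 0.698 (0.682 to 0.715) for Atg2 and 0.759 (0.736 to 0.782) for Atg18. For Atg2 males stood above females and for Atg18 below them, with male to female ratios of 1.11 (1.09 to 1.14) and 0.833 (0.806 to 0.861).

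Atg6, on 3R, is the Drosophila counterpart of mammalian Beclin 1 and belongs to the complex that makes phosphatidylinositol 3-phosphate. It was read at 11.3 CPM in females, 10.5 in males and 8.52 in metafemales. Its log2 fold change in metafemales against females was -0.37, and the median autosomal gene stood at -0.29. Under median-of-ratios and autosomal scaling Atg6 stood at 0.01 and 0.05 and Atg18 at 0.01 and 0.06, so both turn from below to above 0.

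Atg7, on 2R, encodes the E1-like enzyme that activates both ubiquitin-like proteins of the pathway, Atg8 and Atg12. It had 20.3 CPM in females, 28.9 in males and 5.30 in metafemales. Metafemales were far below the other groups, 3.82-fold lower than females (3.60 to 4.06) and 5.46-fold lower than males (5.14 to 5.79). On the log2 scale the difference from females was -1.75, and 2.17% of autosomal genes had a lower value. It stayed past 2-fold with both other scalings, at -1.39 and -1.36. The other Atg7 transcript in the table gave a metafemale to female ratio of 0.272, against 0.262 for the one used here. Males were above females by a ratio of 1.43 (1.37 to 1.49), the highest among members other than Atg8b.

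The genes around each of the 8 members in the Release 6 gene order, those of Atg7 among them, were looked at after these values were seen. CG5335, which lies inside Atg7 on the opposite strand and shares no annotated exon base with it, had 26.5 CPM in females, 23.8 in males and 19.6 in metafemales. On one side the next protein-coding gene that does not overlap Atg7, CG5493, had 10.7, 13.3 and 4.06 CPM in the same order. It was called lower in metafemales against females (-1.20), as were 12.3% of autosomal genes. The next on the other side, sec6, had 12.1, 12.1 and 9.74 CPM (-0.29). Of the 8 genes described here, none shares an annotated exon base with another gene.

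Atg5, on the X chromosome, encodes the protein that is joined to Atg12 and then promotes the coupling of Atg8 to lipid. It stood at 15.1 CPM in females, 14.1 in males and 10.4 in metafemales. Its metafemale to female ratio was 0.688 (0.654 to 0.724) and the male to female ratio 0.935 (0.887 to 0.985). Atg5 and Atg8a are the 2 X-linked genes of the set, on the chromosome of which metafemales carry an additional copy. The median X-linked gene had a log2 fold change of 0.03 in metafemales against females, with the middle 50% of X-linked genes from -0.23 to 0.38. Atg5 (-0.50) and Atg8a (-0.64) were both below this range, with 13.2% and 9.34% of X-linked genes lower than they were. In males against females Atg5 (-0.09) and Atg8a (-0.15) lay close to the X-linked median of -0.19.

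**Figure D2:**
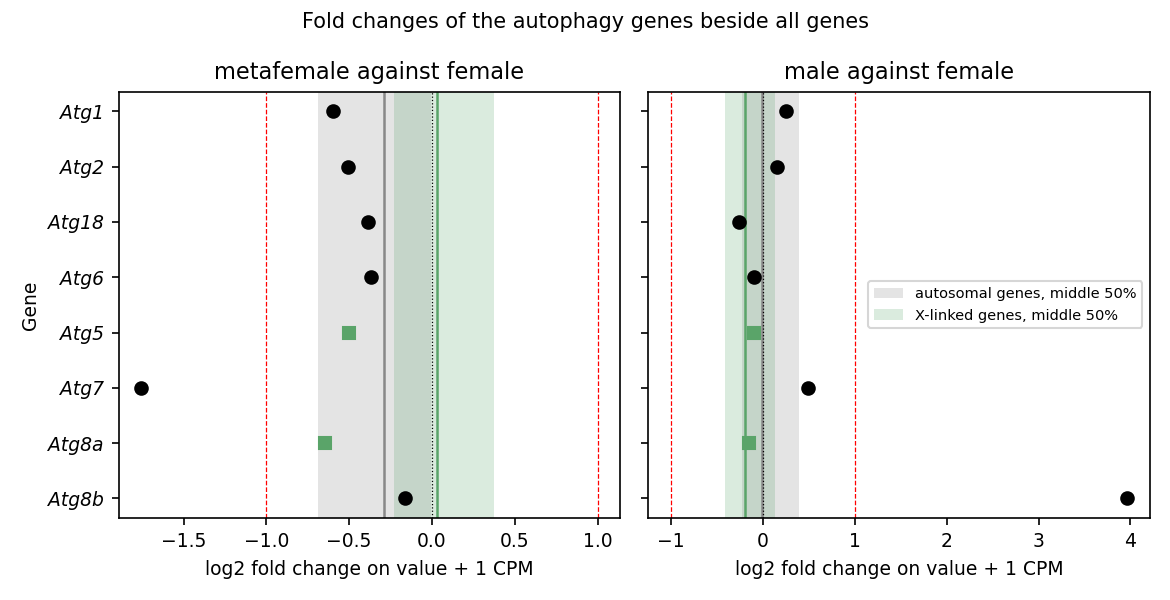
Log2 fold change on value + 1 CPM of each autophagy gene in metafemales against females (left) and males against females (right). Green squares are X-linked and black circles autosomal genes. Shaded bands span the middle 50% of autosomal (grey) and X-linked (green) genes around their medians (vertical lines), and red dashed lines mark 2-fold. Atg7 at -1.75 and Atg8b at 3.96 are past 2-fold.

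Atg8a and Atg8b are paralogs that encode ubiquitin-like proteins. Lipid-bound Atg8a coats the autophagosome and is the common marker of autophagy in Drosophila, whereas Atg8b is known for its expression in the male germline. Atg8a was read at 422 CPM in females, 381 in males and 269 in metafemales. Atg8b had 0.284 CPM in females, 19.0 in males and 0.148 in metafemales, or about 64, 3205 and 40 effective counts. Effective counts are taken at the depth that gives the counting error of the averaged column, 226, 169 and 269 M, not at the summed library totals. Atg8a is therefore abundant in each group, and Atg8b is present above the level of 3 effective counts in each group but high in males alone among the groups measured.

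The male to female ratio was 0.903 (0.894 to 0.912) for Atg8a and 67.0 (52.3 to 87.2) for Atg8b. On value + 1 CPM the log2 fold changes were -0.15 and 3.96, a difference between the paralogs of 4.11 (4.02 to 4.20), and 5.79 with 0.1 CPM added in place of 1. Atg8b passed the minimum mean of 1 CPM through its male value alone, so that it had to differ between the groups once kept.

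In metafemales against females the ratios were 0.639 (0.633 to 0.645) for Atg8a and 0.523 (0.344 to 0.791) for Atg8b. The interval of Atg8b holds the ratio of Atg8a. With 1 CPM added the log2 fold changes were -0.64 and -0.16, a difference of 0.48 that fell to 0.02 with 0.1 CPM added, so the larger figure rests on the added 1 CPM. Against males, metafemale Atg8b was 128-fold lower (93.6 to 179) and Atg8a 1.41-fold lower (1.40 to 1.43). Atg7 and Atg8b were the members called lower in metafemales against males, 2 of 8 beside 28.6% of all genes, and 0 were called higher beside 8.61%.

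Levels of different genes were compared per kb of the longest annotated transcript. Atg8b then had 0.125% of the Atg8a level in females (0.0962 to 0.159), 9.27% in males (8.94 to 9.60) and 0.102% in metafemales (0.0732 to 0.140). With other annotated transcript lengths of both genes the male value ran from 7.71% to 9.95%. Per kb, Atg8a had 347 CPM in females, and the other members but Atg8b had 6.69 (Atg1) to 15.9 (Atg18). In metafemales Atg8a had 222 CPM per kb and Atg7 was lowest of the members other than Atg8b, at 2.21. The male order from the highest was Atg8a (314), Atg8b (29.1), Atg18 (13.3), Atg2 (12.4), Atg7 (12.1), Atg5 (9.97), Atg1 (8.01) and Atg6 (7.04 CPM per kb). Neighbours such as Atg2 and Atg7 exchange places with the shortest transcripts in place of the longest (12.4 and 15.4), so their order is not settled. No sequence of either paralog was used here, and how reads that fit both would have been assigned is not given in the sources used here.

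Markers of the testis were, like Atg8b, higher in males. All 14 spermatocyte and testis genes were past 2-fold higher in males against females, beside 15.3% of all genes. This is a description only: 13 of them reached a mean of 1 CPM, and 9 of those were below 1 CPM in females and metafemales, so that they passed through the male value alone. Their summed level was 14.9 CPM in females, 1052 in males and 10.3 in metafemales, and none was at 0 in any group. Among them betaTub85D, the testis beta-tubulin, had 0.621, 155 and 0.237 CPM, and the spermatocyte regulator can had 0.149, 5.67 and 0.0968. The male to female ratios of the 14 ran from 2.57 (mia) to 399 (dj). In metafemales against females 13 of the 14 lay below 0 (log2), or 11 with either other scaling, and bol lay above (0.32). The median of all genes there was -0.22, so most genes lay below 0 as deposited. At the depth used here nht had about 1 count in metafemales. In these bulk samples the number of cells of a type and the RNA per cell cannot be told apart, and the part of testis tissue in the Atg8b values was not tested.

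**Figure D3:**
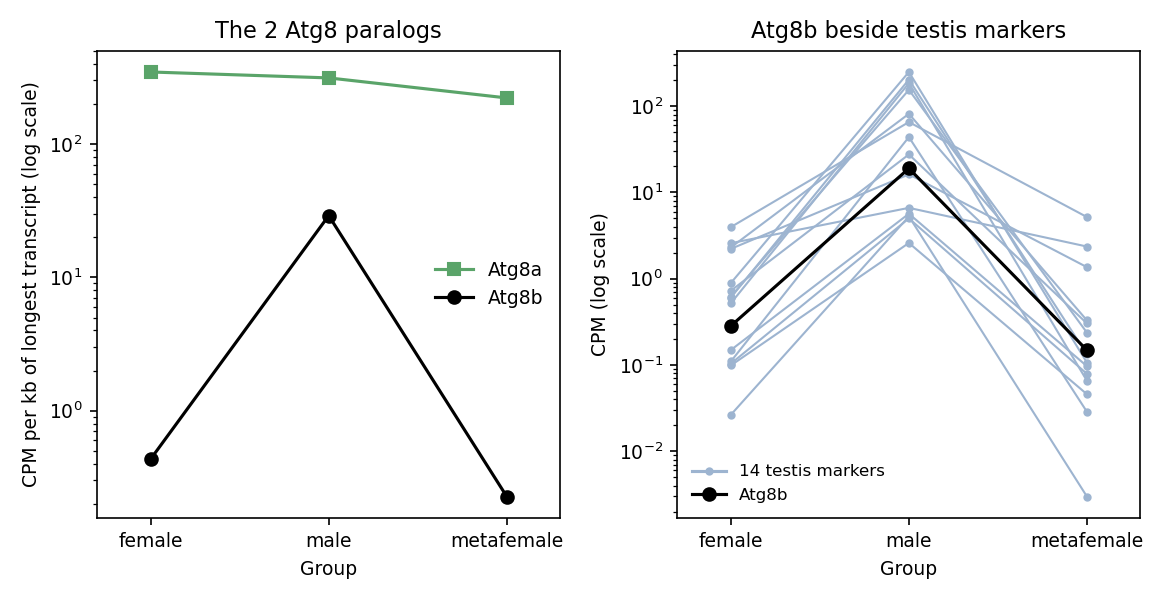
Left, level of Atg8a and Atg8b per kb of the longest annotated transcript (CPM per kb, log axis) in the 3 groups. Right, level of Atg8b beside 14 testis markers (CPM, log axis). Lines join the single value of each group and carry no order. Atg8b and each of the 14 markers are highest in males, and Atg8a is highest in females.

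Over the 3 groups, the profiles most like Atg8a and Atg8b were sought among 10934 other genes as the smallest Euclidean distance of log2(CPM + 1) centred on each gene's mean. With 3 points per gene this measure is coarse. For Atg8a they were CG3238, dpa, CG11836, Sur-8 and crol, at distances of 0.01 (log2). crol, for example, had 130 CPM in females, 116 in males and 82.0 in metafemales. For Atg8b they were CG7387, CG13337, CG31805, CG32026 and CG30487, at distances of 0.01 to 0.03. Each of these was below 1 CPM in females and metafemales and passed the minimum mean through its male value alone. With 1 CPM added, their likeness to Atg8b rests mainly on similar male levels, 16.7 to 20.9 CPM. CG7387 had 0.263 CPM in females, 18.5 in males and 0.130 in metafemales.

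Other genes of the pathway were read from 3 lists with 47 genes in all, each of which reached a mean of 1 CPM. In metafemales against females 13 of 47 (27.7%) were called lower, beside 10.9% of all genes, and 0 were called higher, beside 4.81%. The median of the 47 was -0.45, against -0.22 for all genes. With autosomal scaling the calls became 3 lower (Atg12, br and Eip74EF) and 2 higher (SNF1A and ftz-f1), with a median of -0.0002 (log2). Among all genes that scaling gave 4.15% lower and 9.5% higher, with a median of 0.04. In males against females 0 of 47 were called in either direction, beside 15.3% higher and 1.96% lower among all genes, and the median was -0.14, against -0.04 for all genes. In metafemales against males 11 of 47 (23.4%) were called lower and 2 (4.26%) higher, beside 28.6% and 8.61% of all genes. The shares over all genes are not matched on level and include many low genes. With a minimum mean of 10 CPM, all genes called higher in males against females went from 1670 to 315. Those called lower in metafemales against males went from 3126 to 1215, and pathway genes from 11 to 10.

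Among 15 other core genes, 2 (13.3%) were called lower in metafemales against females, Atg12 and CG8678. This share is near the 10.9% of all genes. Atg12, the ubiquitin-like partner of Atg5 that Atg7 activates, had 5.14 CPM in females, 6.23 in males and 1.46 in metafemales (-1.32 against females). CG8678, now Atg18b, a relative of Atg18, had 39.7, 36.8 and 14.8 CPM (-1.37). With median-of-ratios and autosomal scaling CG8678 was within 2-fold (-0.98 and -0.94), and Atg12 stayed past it (-1.04 and -1.03). The remaining enzymes of the cascade were within 2-fold: Aut1 (now Atg3), which transfers Atg8 to lipid, at -0.57, CG12821 (Atg10), which transfers Atg12 to Atg5, at -0.27, and CG31033 (Atg16), the partner of the Atg12 and Atg5 conjugate, at -0.27. The Atg4 proteases, which trim Atg8, stood at -0.45 (Atg4) and 0.00 (CG6194, Atg4b).

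The partners of Atg1 were also within 2-fold. Atg13 had 22.8 CPM in females and 15.6 in metafemales (-0.52), CG1347 (Atg17) had 50.8 and 39.7 (-0.35), and the X-linked CG7053 (Atg101) had 14.3 and 20.3 (0.48). Of the lipid kinase complex of Atg6, the catalytic subunit gene Pi3K59F had 13.97 and 17.83 CPM (0.33), and CG11877 (Atg14), which directs the complex to autophagy, had 12.00 and 7.995 (-0.53). Atg9, the transmembrane protein of this pathway, had 47.5 and 39.7 CPM (-0.25). Values of the core pathway in metafemales thus lay on both sides of females, with 12 of 15 below and 3 of 15 above, and 7 of 15 below with either other scaling. All genes had a median of -0.22 and an upper quartile of 0.04 as deposited, so most of them lay below 0 too.

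**Figure D4:**
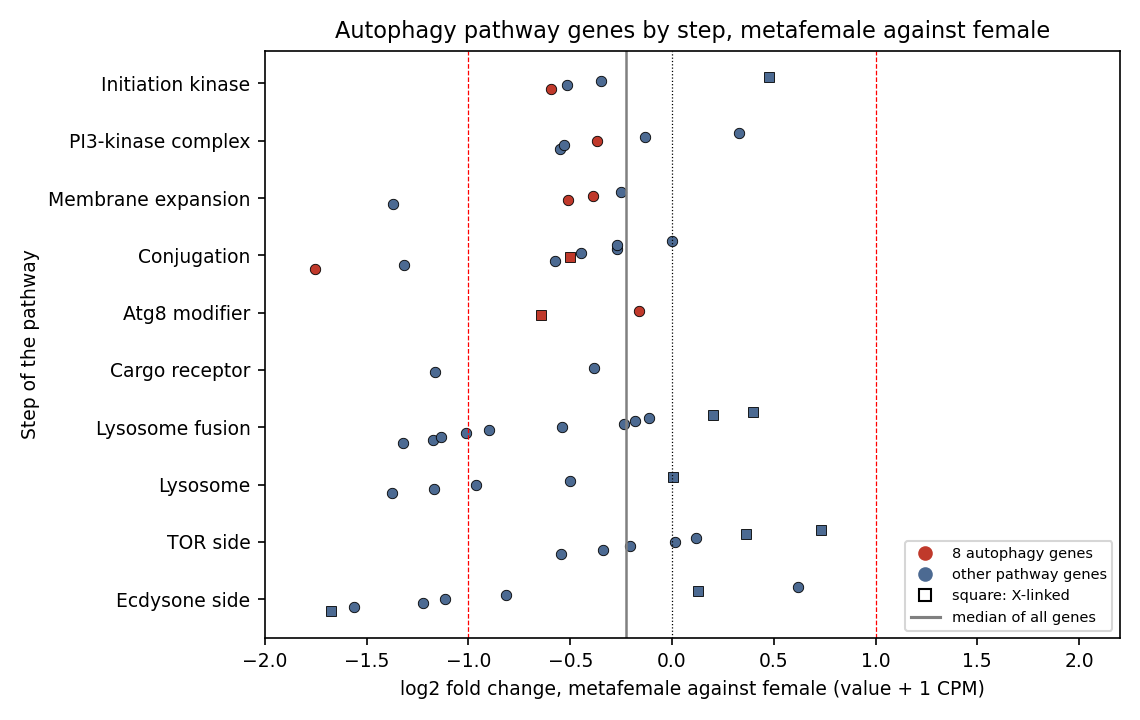
Log2 fold change in metafemales against females (value + 1 CPM) of the 8 autophagy genes (red) and 47 other pathway genes (blue), by step of the pathway, with X-linked genes as squares. The grey line is the median of all genes (-0.22) and red dashed lines mark 2-fold. Of the blue points 13 lie past 2-fold on the lower side and 0 on the higher side.

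Of 18 genes for cargo, fusion and the lysosome, 7 were called lower in metafemales against females and 0 higher, beside 10.9% and 4.81% of all genes, with a median of -0.72 against -0.22 for all genes. None of the 7 stayed past 2-fold with autosomal scaling (median -0.27, against 0.04 for all genes). The 3 partners of the fusion reaction between autophagosome and lysosome were among them: Syx17 (14.7 CPM in females and 6.80 in metafemales), usnp, now Snap29 (35.9 and 13.8), and CG1599, now Vamp7 (52.1 and 22.5). CG32350 (Vps11), a subunit of the HOPS tether, had 28.9 and 12.6 CPM and was called lower (-1.13). The other autosomal HOPS genes of the list were within 2-fold: Vps16A (-0.12), CG7146 (Vps39, -0.24) and lt (-0.54). The HOPS genes dor and car on the X had 14.4 and 16.7, and 12.8 and 17.2 CPM. The lysosomal membrane protein gene CG3305 (Lamp1) had 362 and 160 CPM and the cathepsin L gene Cp1 had 588 and 226. The X-linked cathepsin B gene CG10992 had 408 and 410. The cargo receptor ref(2)P, the counterpart of mammalian p62 and itself a substrate of autophagy, had 223 CPM in females, 177 in males and 171 in metafemales (-0.38), and bchs, a large scaffold protein gene, had 34.5, 50.5 and 14.9 (-1.16).

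Of 14 upstream regulators, 4 were called lower in metafemales against females, beside 10.9% of all genes, and 0 higher. The 4 are among the 7 genes of the ecdysone side: br (249 and 77.4 CPM), Eip74EF (88.9 and 29.4), Eip75B (104 and 47.6) and Eip93F (10.2 and 3.81), which is known for its part in the death of the larval salivary glands. With autosomal scaling Eip75B (-0.66) and Eip93F (-0.85) were within 2-fold. The other genes of that side were within 2-fold as deposited: the receptor gene EcR had 107 CPM in females and 60.6 in metafemales (-0.81), its X-linked partner usp had 30.4 and 33.3 (0.13), and the nuclear receptor gene ftz-f1 had 6.02 and 9.77 (0.62). Against males ftz-f1, at 3.48 CPM there, was called higher in metafemales (1.27). On the side of TOR, the kinase that holds Atg1 in check, 0 of 7 were called in metafemales against females. The shares over all genes were 10.9% lower and 4.81% higher. Tor had 36.5 CPM in females and 31.4 in metafemales, and its X-linked partner raptor had 17.4 and 22.6. The X-linked SNF1A, the AMP-activated kinase that opposes TOR, had 58.1 and 97.3 (0.73). Against males SNF1A was called higher in metafemales (1.17). The 8 X-linked genes among the 47 had a median of 0.28 and 7 of them lay above 0 in metafemales against females, with br the exception. The 39 autosomal ones had a median of -0.53, with 34 below 0. Among all genes that passed the minimum mean, the median stood at 0.03 on the X and at -0.29 on the autosomes. The autosomal upper quartile was -0.007, so most autosomal genes lay below 0 too. With median-of-ratios and autosomal scaling the 39 had medians of -0.14 and -0.096, with 23 below 0 under either. The 8 on the X then had medians of 0.68 and 0.72, with 1 below 0. These scalings add 0.41 and 0.46 (log2) to every gene before 1 CPM is added. The medians of 0.03 and -0.29 for all genes are as deposited and cannot be set beside the rescaled ones. The size of the autosomal fall thus depends on the scaling.

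Markers of larval tissues differed between these groups as well. Sgs3, a salivary glue gene, had 1485 CPM in females, 1529 in males and 515 in metafemales. Mhc, the muscle myosin gene, had 676, 371 and 3708, the gut gene betaTry had 207, 129 and 877, and the neuronal gene elav had 19.7, 16.8 and 17.2. The fat body markers went opposite ways, with Lsp1beta at 4342, 1505 and 17148 CPM and Lsp2 at 9444, 9876 and 5064. The part of these tissues in the values of the autophagy genes was not tested. Group and developmental stage cannot be told apart, because the labels give no age within the instar.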

How the data were processed

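Total RNA of 3 groups of larvae was sequenced from TruSeq RNA libraries, per the labels' protocols. TopHat and HTSeq were used on the build dm3, as the submitters' processing notes state. For versions, annotation and strand setting the status is: not given in the sources used here. In the deposited tables each value is a fraction of a group's transcript counts, over 3698 X-linked and 19040 autosomal transcripts, and was multiplied by 1000000 (CPM). The authors pooled 3 repeats into 1 column. To infer depth, values under 0.05 CPM were decomposed into sums of 3 step sizes per column. All 1749 low values in females, 981 in males and 2170 in metafemales decomposed (relative tolerance 1e-05), against at most 0.972% with the steps of another group. Each column was taken as an average of 3 libraries, and its counting error is that of 226 M counts for females, 169 M for males and 269 M for metafemales. A level of 3 such effective counts is 0.0133, 0.0178 and 0.0112 CPM. Reads carried no molecular identifiers, so counts need not be separate molecules.

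The transcript with the highest mean stood for its gene. Of 3962 genes with 2 or more transcripts, 523 had transcripts with identical values. Names were matched to RefSeq Release 6 by accession (21508), by name (1120) or not at all (110). That release and the Ensembl annotation were used for current symbols, chromosome arms, gene order and transcript lengths only, since the build differs, and no coordinates are given. Of the 8 genes and the pathway lists all were matched.

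The members and lists were chosen with earlier results of these data known. Named were all members, list genes past 2-fold first, and the 5 genes nearest in profile to Atg8a and to Atg8b. The planned count model, replicate block and leave-one-out fits could not be made from pooled columns. Calls and ratio intervals were checked on simulated data that held counting error alone, with no spread between larvae. Changed genes there had a mean of at least 10 CPM, unlike Atg8b. Intervals for differences of log2 fold changes were not simulated. Alternatives were 2 other scalings, 0.1 CPM added, sums over transcripts, no filter, and a minimum mean of 10 CPM. Python 3.11.15, numpy 2.4.6, pandas 2.3.3, scipy 1.17.1 and matplotlib 3.10.9 were used.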

Additional observations from a re-analysis of the deposited data

How the results depend on the processing

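No paired analysis was possible because each group is 1 deposited column, and leaving out a replicate could not be run for the same reason. Summing transcripts and removing the filter on low values moved no count of members or pathway genes past 2-fold and no difference between the Atg8 paralogs by more than the limits used (1.5 times for counts, the counting interval for differences). In metafemales against females, pathway genes called lower went from 13 of 47 to 3 with either scaling (median-of-ratios, autosomal), and those called higher from 0 to 1 and 2. The shares of all genes went from 10.9% to 4.38% and 4.15% lower, and from 4.81% to 8.91% and 9.5% higher. Against males, pathway genes called lower went from 11 of 47 to 5 and 5, and those called higher from 2 to 6 and 6. The shares of all genes there went from 28.6% to 20.7% and 20.9% lower, and from 8.61% to 14.8% and 15% higher. With a minimum mean of 10 CPM, which removes Atg8b, members called higher in males went from 1 to 0, members called lower in metafemales against males from 2 to 1, and pathway genes called higher in that comparison from 2 to 1. The Atg8b minus Atg8a difference (log2) in metafemales against females was 0.48, 0.14 with median-of-ratios scaling, 0.094 with autosomal scaling and 0.019 with 0.1 CPM added. Against males it was -3.63, then -3.90, -4.01 and -5.77, and in males against females 4.11, or 5.79 with 0.1 CPM added. The Atg7 and Atg8b calls kept their direction in every alternative that held the gene. Among all genes, calls in metafemales against females were 526 higher and 1188 lower, 975 and 479 after median-of-ratios scaling, and 1040 and 454 after autosomal scaling. In metafemales against males all-gene calls were 942 higher and 3126 lower, then 1622 and 2267, and 1645 and 2284. With a minimum mean of 10 CPM males against females gave 315 higher and 141 lower in place of 1670 and 214. Depth limits Atg8b most, at about 64 effective counts in females and 40 in metafemales.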
